A study of Mus musculus with 7 samples.

Results

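Chaperone transcripts were examined in endothelial cells sorted from mouse embryo lungs at E18.5, on 3 arrays that carry the wild-type label and 4 that carry the Sash1-knockout label. The genes were chosen by symbol alone: heat shock proteins of the Hsp90, Hspa, Hspb, Hspd, Hspe and Hsph series and J-domain proteins of the Dnaja, Dnajb and Dnajc series, each represented by the probe set of 1 symbol with the highest mean signal. This gave 66 of the 22180 genes with such a probe set. Classes were assigned by symbol too, with 2 genes in HSP90, 11 in HSP70, 3 in HSP110 and 7 in the small heat shock proteins. The others were HSP60 and its partner HSP10, 3 DNAJA, 12 DNAJB and 26 DNAJC. Another 6 symbols (Dnaja1, Dnajb8, Dnajc17, Dnajc19, Dnajc19-ps and Hspb2) occurred only on probe sets that list several genes and were not used, and Hsp90ab1 was not analysed here. Knockout embryos (Sash1-/-) and their wild-type littermates had a C57BL/6 background, and the cells of both carried CD31 without CD45 or CD326. The labels give neither the part of Sash1 that was removed nor whether a sample was 1 embryo or a pool, so p-values speak only of the spread among the deposited samples, which may be technical. Values are listed by label number, 1 to 3 under the wild-type label and 1 to 4 under the knockout label.

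Heat shock proteins hold unfolded proteins, keep them from clumping and help them fold. HSP70 proteins bind and release their clients with the use of ATP. J-domain proteins bring clients to HSP70 and speed its ATPase, and HSP110 proteins exchange its nucleotide. HSP90 finishes the folding of kinases and steroid receptors and binds endothelial nitric oxide synthase, small heat shock proteins hold clients without ATP, and HSP60 with HSP10 folds proteins inside mitochondria. Some of these genes are transcribed at all times, while others are switched on by heat shock factor 1 when proteins unfold.

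Sash1, the targeted gene, had log2 signals of 8.33 to 9.02 under the wild-type label and 8.13 to 8.68 under the knockout label, so the labels overlapped and every direction given here rests on the labels. The endothelial marker Pecam1, which encodes CD31, lay between 11.03 and 11.21 on all arrays, and the mean of 10 endothelial markers between 10.06 and 10.29. Array medians over all probe sets were 3.86 to 4.03. Arrays give no read depth, and precision is limited by having 3 and 4 of them.

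Promoter stretches are shown for genes that turned out to vary most between arrays (Hspa1a, Hspa1b and Hspb1) and for 2 genes with a longer match to the heat shock element upstream of their start (Hspe1 and Dnajb6). The element is built of inverted GAA units and is the site that heat shock factors are known to bind. Capitals mark matches on either strand to the pair of units (GAANNTTC or TTCNNGAA), and overlapping matches run together into longer forms. In the form of 3 units, the next inverted unit follows after another 2 bases (GAA after GAANNTTC, or TTC after TTCNNGAA). All are RefSeq sequences of build GRCm38.p6, upstream of the start site and read 5′ to 3′ on the gene's strand.
Hspa1a: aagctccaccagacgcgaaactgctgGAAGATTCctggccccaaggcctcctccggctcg
Hspb1: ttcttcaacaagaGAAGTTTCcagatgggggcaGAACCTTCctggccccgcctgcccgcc
Hspe1: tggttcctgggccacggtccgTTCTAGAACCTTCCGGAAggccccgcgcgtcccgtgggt
Dnajb6: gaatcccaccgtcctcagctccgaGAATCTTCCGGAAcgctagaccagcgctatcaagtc

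The Hspa1a stretch lies at chr17:34972227-34972286 on the minus strand. The same 60 bases occur upstream of Hspa1b at chr17:34959309-34959368, also on the minus strand, and the 250 bases upstream of both genes were alike at 247 positions. The Hspb1 stretch lies at chr5:135887789-135887848, that of Hspe1 at chr1:55088038-55088097 and that of Dnajb6 at chr5:29735828-29735887, all on the plus strand. Hspe1 and Hspd1 run away from each other on opposite strands, and 285 of the 300 promoter bases of each were shared with the other. Of the 54 chaperone genes with a promoter in the table, 4 (7.41%) held the form of 3 units, namely Hspd1, Hspe1, Dnajb6 and Hsph1, against 0.662% of all 27025 genes. Hspd1 and Hspe1 held 2 overlapping copies of this form, which is the longer run of capitals shown for Hspe1. These are the same bases read on opposite strands, so the same site counts for both genes in the share of 7.41%. The pair of units was present for 15 (27.8%), against 17% of all genes, and is part of every longer match. A match describes letters in a window of 300 bases and was not tested as a site.

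No chaperone gene passed the comparison of labels. Of 64 chaperone genes tested (Dnajb7 and Dnajc5g were too dim), 0 had an adjusted p under 0.05 in limma (Benjamini-Hochberg over 16635 genes), where 0% of all genes tested passed too. At an unadjusted p under 0.05 there was 1 chaperone gene (1.56%), Hspa2, higher under the knockout label, against 3.34% of all genes, 2.38% higher and 0.962% lower. The labels did not overlap for 1 chaperone gene (1.56%), Dnajc9, also higher under the knockout label, against 2.45% of all genes, 1.77% higher and 0.679% lower. Each of these chaperone shares rests on 1 gene, too few to tell it from the share of all genes. Each difference is the knockout-labelled mean less the wild-type-labelled one, in log2 units. The median difference was -0.01 over the chaperones and 0.02 over all genes. A difference of less than 0.5 log2 units in either direction was found for 62 of the 64 chaperones and for 16211 of the 16635 genes. There were 28 positive (43.8%) and 36 negative differences among the chaperones, where 54.4% of all genes were positive. Centring each array on its median moved all genes up together, to 41 and 23 among the chaperones and 68.7% positive over all genes, so the signs of small differences depend on the scaling. The median 95% confidence interval reached 0.32 log2 units to either side.

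**Figure D1:**
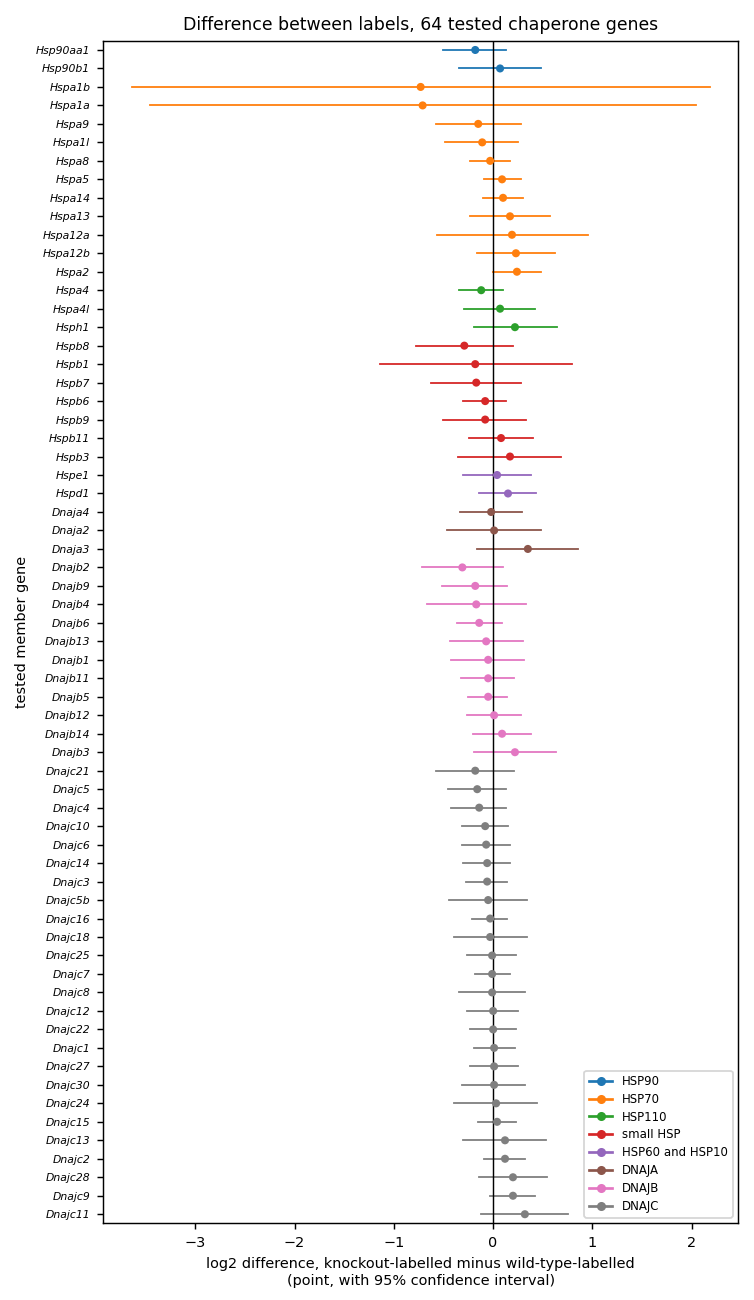
Difference of each of the 64 tested chaperone genes between labels, in log2 units, as a point with its 95% confidence interval, ordered and coloured by class. All intervals except that of Hspa2 cross 0, and those of Hspa1a and Hspa1b, from -3.46 to 2.04 and from -3.64 to 2.18, are the widest.

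The 2 genes of the stress-induced HSP70, Hspa1a and Hspa1b, varied most of all chaperones between arrays, and their spread lay within the labels. Hspa1a had log2 signals of 8.38, 8.58 and 7.08 under the wild-type label and of 9.26, 6.78, 8.86 and 4.32 under the knockout label. The lowest and the highest values both carried the knockout label, and all 3 wild-type-labelled values lay between them. Hspa1b had log2 signals of 8.61, 8.91 and 7.90 under the wild-type label and of 9.55, 7.44, 9.62 and 4.37 under the knockout label. The highest signal over the lowest was 30.7-fold for Hspa1a and 38.1-fold for Hspa1b. The low end of both, on knockout 4, was close to the array medians of 3.86 to 4.03.

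Hspa1a differed by -0.71 between labels (SE 1.17, adjusted p = 0.976 in limma) and Hspa1b by -0.73 (SE 1.24, adjusted p = 0.981 in limma). The spread was unequal between labels. The SD was 0.81 and 0.52 under the wild-type label and 2.27 and 2.47 under the knockout label, for Hspa1a and Hspa1b in turn. Without the array labelled knockout 4 these differences turned to 0.29 and 0.40. Without knockout 1 that of Hspa1a was -1.36 and that of Hspa1b -1.33, without knockout 3 -1.23 and -1.35, and without wild-type 2 or wild-type 3 that of Hspa1a was -0.43 or -1.18. After fitting label means, the residual SD was 1.83 for Hspa1a and 1.94 for Hspa1b, and only 9 and 6 of the 16635 genes had a larger one. The coding sequences of both genes are near-identical, so a probe may read either transcript and the division between them is uncertain. Another probe set, listed for both genes, measured 7.05, 7.27 and 6.14 under the wild-type label and 8.25, 6.25, 8.05 and 4.46 under the knockout label. It had the same 2 highest arrays and the same lowest one, but its label difference was -0.07, against -0.71 and -0.73.

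**Figure D2:**
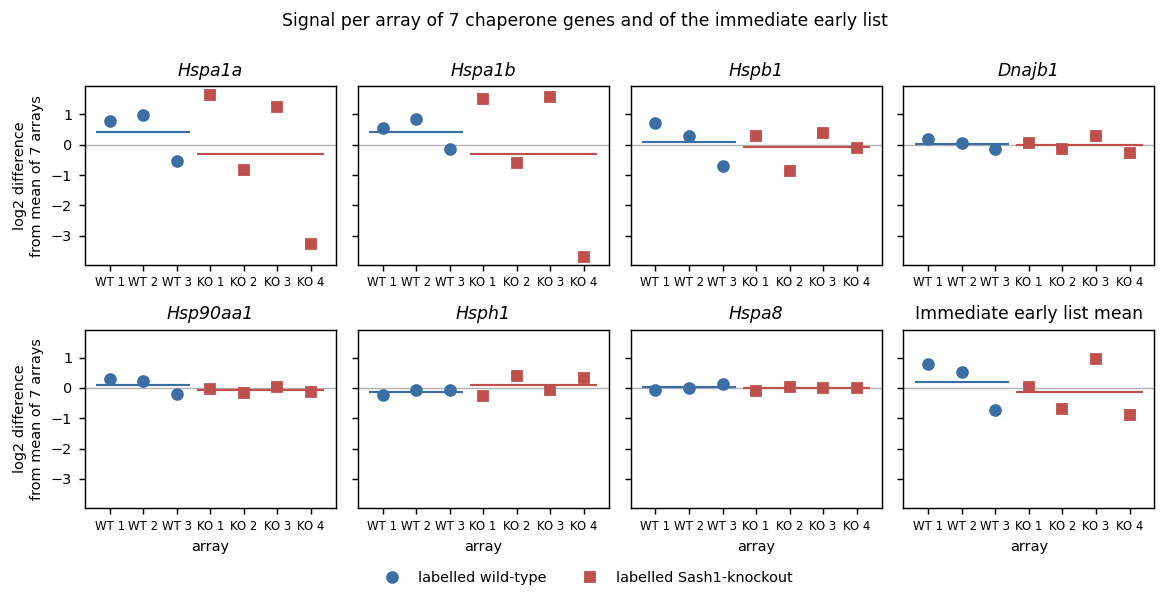
Log2 signal of 7 chaperone genes and of the mean of 20 immediate early genes on each array, as the difference from the mean of the 7 arrays. Circles are arrays labelled wild-type (WT), squares those labelled Sash1-knockout (KO), and horizontal lines label means. Hspa1a and Hspa1b span 4.94 and 5.25 log2 units, whereas Dnajb1, Hsp90aa1, Hsph1 and Hspa8 span 0.21 to 0.67.

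The arrays with high Hspa1a were also those with high immediate early genes, which encode factors such as Fos that cells transcribe within minutes of a stimulus, tissue dissociation included. The mean of the 20 genes measured of 21 was 8.64, 8.38 and 7.12 under the wild-type label and 7.88, 7.17, 8.80 and 6.97 under the knockout label. The 4 highest arrays, wild-type 1, wild-type 2, knockout 1 and knockout 3, were the 4 highest for Hspa1a and Hspa1b as well. Of these 20 genes 0 passed, 17 had negative and 3 positive differences, and their median difference was -0.34. Fosl2, a partner of Jun, differed by -0.63 and the zinc finger factor Klf6 by -0.67.

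Markers of other cell types differed between arrays too, among them epithelium (CD326+) and leukocytes (CD45+), which the sort was set to leave out. The mean of 12 lung epithelial markers (12 of 12 measured) was 7.37 to 8.54 under the wild-type label and 6.89 to 8.35 under the knockout label, and that of 12 leukocyte markers (12 of 12 measured) was 5.08 to 5.64 and 4.62 to 5.37. Both lists had the same 4 highest arrays as Hspa1a and were lowest on knockout 4. The list mean hides bright epithelial markers. Sftpc was at 11.97, 11.90 and 11.92 under the wild-type label, above the 11.03 to 11.21 of Pecam1. It was at 10.20 on knockout 4 and at 11.86 or more on the other knockout-labelled arrays. Sftpa1 was at 4.70 on knockout 4 and at 7.78 to 9.38 on the other arrays. The sorted samples thus held clear epithelial signal. Platelet markers (5 of 6 measured) averaged 4.67 to 5.53 and 4.31 to 5.51, again lowest on knockout 4. All 12 leukocyte and all 5 platelet markers had negative differences, as did 9 of the 12 epithelial ones, with 0 passing. The 12 fibroblast and mural markers had 10 positive and 2 negative differences. They averaged 6.71 to 7.15 and 6.57 to 7.42, highest on knockout 1 and lowest on knockout 4. Their 4 highest arrays were not those of Hspa1a, with wild-type 1 at 6.71 and knockout 2 at 6.84. The lowest of these means was 4.31, against array medians of 3.86 to 4.03, and in bulk samples fewer cells of a type and less RNA per cell cannot be told apart. The part of these cells and of the immediate early response in the Hspa1a and Hspa1b values was not tested.

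The other HSP70 genes ranged from steady ones, Hspa8 and Hspa5, to Hspa12a, which spanned 1.28 log2 units over the arrays. Hspa8, the constitutive cytosolic HSP70, had log2 signals of 11.97, 12.03 and 12.16 under the wild-type label and 11.95, 12.07, 12.04 and 12.04 under the knockout label. Its labels overlapped at a difference of -0.03 (95% confidence interval -0.23 to 0.17), which turned to 0.03 with median centring and to 0.02 without wild-type 3, and its other 3 probe sets differed by -0.04 to 0.08. Hspa5, the HSP70 of the endoplasmic reticulum known as BiP, had log2 signals of 7.18, 7.17 and 7.25 against 7.29, 7.25, 7.24 and 7.39, a difference of 0.09 (-0.09 to 0.28). Both genes lay within a narrow band on every array, with residual SDs of 0.07 and 0.06 that 93.2% and 95.7% of genes exceeded.

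Hspa9, the mitochondrial HSP70 called mortalin, had log2 signals of 8.62, 8.46 and 8.01 under the wild-type label and 7.91, 8.20, 8.41 and 8.33 under the knockout label, a difference of -0.15 (-0.58 to 0.28). Hspa2, an HSP70 best known from the testis, had 5.24, 4.97 and 4.95 against 5.30, 5.24, 5.25 and 5.40. Its knockout-labelled values were at or above the highest wild-type-labelled one, with a difference of 0.24 (0.00 to 0.48, unadjusted p = 0.047, adjusted p = 0.971 in limma). With 1 array left out, its unadjusted p stayed under 0.05 without wild-type 1 and not without any of the other 6. Hspa12b, a distant HSP70 relative known for its expression in endothelium, had 7.66, 7.09 and 7.75 against 7.66, 7.66, 7.82 and 7.78, a difference of 0.23 (-0.16 to 0.62) that was 0.02 without wild-type 2, the low array. Its relative Hspa12a had 3.32, 4.28 and 3.00 against 3.21, 3.83, 3.98 and 3.89, and its difference of 0.19 (-0.57 to 0.96) was 0.57 without wild-type 2 and -0.07 without wild-type 3. Hspa13, Hspa14 and Hspa1l differed by 0.17, 0.10 and -0.11, so that 6 of the 11 HSP70 genes had positive and 5 negative differences, with 0 passing and a median of 0.09.

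The HSP90 class was represented by its stress-responsive cytosolic and its endoplasmic reticulum member. Hsp90aa1 had log2 signals of 6.67, 6.59 and 6.18 under the wild-type label and 6.34, 6.22, 6.40 and 6.23 under the knockout label. Its 4 highest arrays were those of Hspa1a, over a range of 0.49 log2 units, and the labels differed by -0.18 (-0.50 to 0.13), or by -0.09 once wild-type 1 was left out and -0.33 when wild-type 3 was. Hsp90b1, the endoplasmic reticulum form GRP94, had 10.13, 10.28 and 10.66 against 10.30, 10.58, 10.16 and 10.66. Its highest signals were on wild-type 3 and knockout 4, where Hspa1a was low, and the labels differed by 0.07 (-0.34 to 0.48), or by -0.05 when wild-type 1 was left out and -0.01 when knockout 4 was.

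Of the HSP110 class, Hsph1, itself a heat shock factor 1 target, had log2 signals of 5.0, 5.16 and 5.16 under the wild-type label and 4.97, 5.64, 5.16 and 5.55 under the knockout label, a difference of 0.22 (-0.19 to 0.64). It was highest on knockout 2 and knockout 4, the lowest knockout-labelled arrays for Hspa1a. Hspa4 had 8.04, 8.22 and 8.02 against 8.02, 8.05, 7.86 and 7.96, a difference of -0.12 (-0.34 to 0.10). Hspa4l, the remaining member, differed by 0.07 (-0.29 to 0.42). None of the 3 passed in limma.

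Small heat shock proteins held the most variable chaperone gene after these 2, Hspb1, which encodes HSP27 and binds actin filaments and clients under stress. Its log2 signals were 9.54, 9.13 and 8.15 under the wild-type label and 9.14, 7.96, 9.22 and 8.73 under the knockout label. The labels overlapped at a difference of -0.18 (-1.14 to 0.79), and leaving out 1 array turned it to 0.12 (wild-type 1) or 0.09 (knockout 2) and moved it to -0.57 (wild-type 3), -0.30 (knockout 1), -0.33 (knockout 3) or -0.08 (wild-type 2). Its 4 highest arrays were again wild-type 1, wild-type 2, knockout 1 and knockout 3, and 2.3% of genes had a residual SD above its 0.64. A second probe set of the gene had 6.21, 5.76 and 5.28 against 5.67, 4.99, 6.00 and 5.62, also highest on wild-type 1 and lowest on knockout 2.

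Hspb8, which works with Bag3 in the clearance of misfolded proteins, had log2 signals of 5.93, 6.23 and 5.92 under the wild-type label and 6.03, 5.79, 5.92 and 5.20 under the knockout label, a difference of -0.29 (-0.78 to 0.20) with the low value on knockout 4. Hspb6, known from smooth and heart muscle, had 6.15, 6.13 and 6.13 against 6.17, 5.90, 6.10 and 6.04, a difference of -0.08 (-0.30 to 0.13). Hspb3, a muscle form, had 3.23, 3.25 and 3.19 against 3.23, 3.09, 4.01 and 3.23, where knockout 3 stood apart. The difference of 0.17 (-0.35 to 0.68) was -0.04 without that array. Hspb3 was dim, with the knockout 3 value among the array medians of 3.86 to 4.03 and the others below them. The list of 12 cardiac and striated muscle markers averaged 5.21 to 5.76 under the wild-type label and 4.98 to 5.28 under the knockout label, with Csrp3 at -0.64 and Myl7 at -1.26, 0 passing, and its part in the Hspb6 and Hspb3 values was not tested. Hspb7, Hspb9 and Hspb11 differed by -0.17, -0.08 and 0.08.

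The mitochondrial pair that shares a promoter differed little. Hspd1, which encodes HSP60, had log2 signals of 8.13, 8.44 and 8.44 under the wild-type label and 8.36, 8.49, 8.40 and 8.68 under the knockout label, a difference of 0.15 (-0.14 to 0.43). Hspe1, which encodes the lid protein HSP10, had 8.63, 8.68 and 8.61 against 8.50, 8.45, 8.76 and 9.01, a difference of 0.04 (-0.30 to 0.38), or -0.07 without knockout 4. Both were highest on knockout 4, the array with the lowest Hspa1a.

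**Figure D3:**
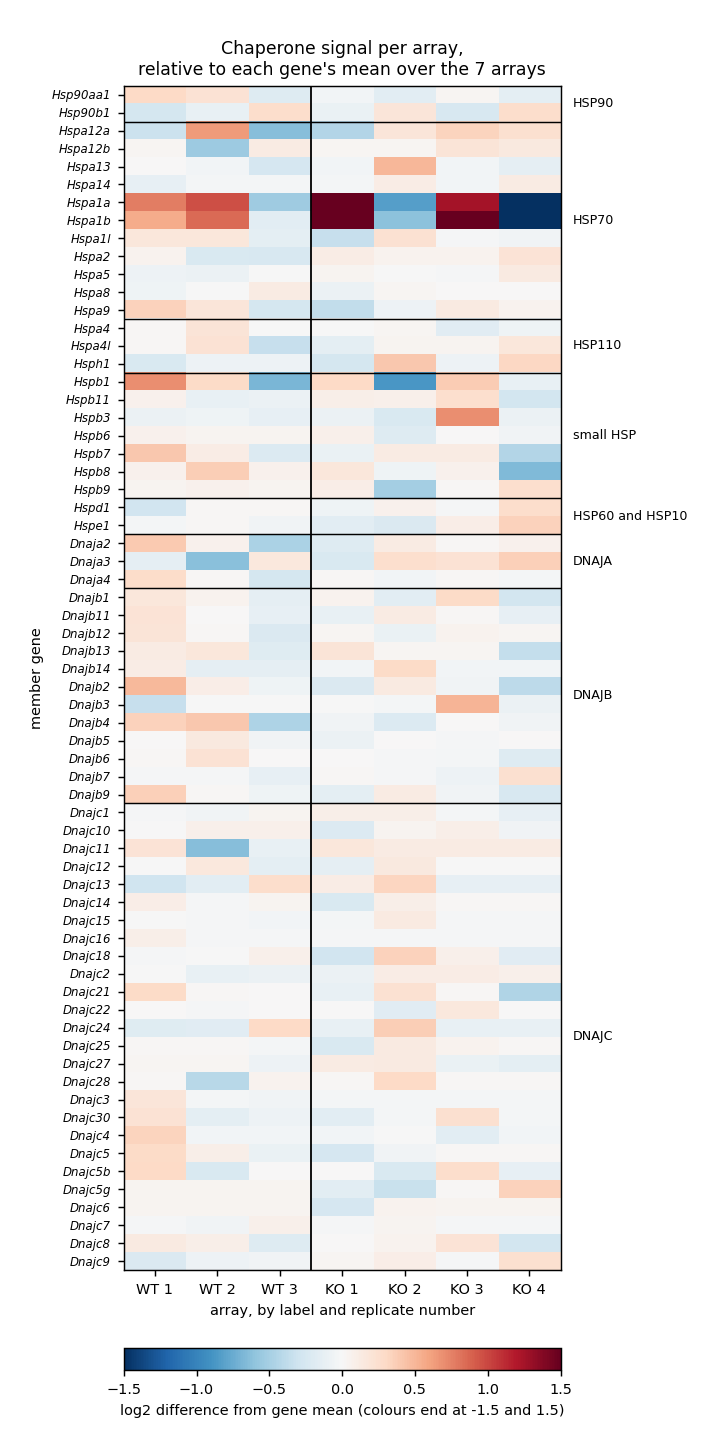
Log2 signal of all 66 chaperone genes (rows, by class) on the 7 arrays (columns, WT labelled wild-type and KO labelled Sash1-knockout), relative to each gene's mean over the arrays. Hspa1a and Hspa1b reach the ends of the colour scale, Hspb1 is the next most varied row, and most DNAJB and DNAJC rows stay pale.

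Among J-domain proteins the DNAJB class held the stress-induced partner of HSP70, Dnajb1, also called HSP40. Its log2 signals were 6.51, 6.39 and 6.20 under the wild-type label and 6.39, 6.18, 6.62 and 6.06 under the knockout label, a difference of -0.05 (-0.42 to 0.31) that was 0.03 without knockout 4 and 0.02 without wild-type 1. The same 4 arrays as for Hspa1a were highest, but over 0.56 log2 units in place of 4.94. Dnajb4 had 4.38, 4.44 and 3.57 against 3.98, 3.83, 4.04 and 3.98, a difference of -0.17 (-0.67 to 0.33). Its wild-type-labelled values enclosed the knockout-labelled ones.

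Dnajb9 and Dnajb11 serve BiP in the endoplasmic reticulum, and Dnajc3 acts there too as a partner of BiP. Dnajb9 had log2 signals of 8.30, 7.96 and 7.88 under the wild-type label and 7.79, 8.07, 7.89 and 7.70 under the knockout label, a difference of -0.18 (-0.51 to 0.14). Dnajb11 had 7.99, 7.79 and 7.66 against 7.67, 7.91, 7.80 and 7.66, a difference of -0.05 (-0.32 to 0.21). Dnajc3 had 9.56, 9.35 and 9.33 against 9.35 on all 4 knockout-labelled arrays, a difference of -0.06 (-0.27 to 0.14). The 3 genes were highest on the array labelled wild-type 1, and the differences of Dnajb11 and Dnajc3 turned to 0.03 and 0.01 without it.

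Dnajb2, a J-domain protein of neurons and muscle, had log2 signals of 4.24, 3.85 and 3.69 against 3.53, 3.89, 3.70 and 3.36, a difference of -0.31 (-0.72 to 0.10). It was dim, with all values but that of wild-type 1 among or below the array medians of 3.86 to 4.03. Without wild-type 1 its difference was -0.15. Dnajb6, which keeps polyglutamine proteins soluble, had 6.82, 7.02 and 6.81 against 6.81, 6.79, 6.77 and 6.61, with knockout-labelled values at or below the lowest wild-type-labelled one and a difference of -0.14 (-0.36 to 0.09). Of the 11 DNAJB genes tested, 3 had positive and 8 negative differences, with a median of -0.05 and 0 passing in limma.

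Of the DNAJA class, Dnaja3, the mitochondrial form known as TID1, had the largest positive difference of all chaperones, but its probe sets disagreed. The one used had log2 signals of 6.32, 5.83 and 6.62 under the wild-type label and 6.23, 6.71, 6.68 and 6.82 under the knockout label, a difference of 0.35 (-0.16 to 0.86), or 0.14 without wild-type 2 and 0.53 without wild-type 3. Its other 2 probe sets differed by 0.00 and -0.66, and the mean of the 3 by -0.10. Dnaja4, a heat-responsive form, had 4.83, 4.57 and 4.29 against 4.57, 4.51, 4.57 and 4.52, a difference of -0.02 (-0.33 to 0.29), or 0.11 without wild-type 1, and Dnaja2 differed by 0.01.

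DNAJC proteins share the J domain and little else, and by median residual SD they were the steadiest class. Their median residual SD was 0.12, against 0.20 over all genes tested, and the 25 tested genes differed by -0.18 to 0.32 with a median of -0.01, 10 of them positive and 15 negative. The highest and lowest arrays of a DNAJC gene lay 0.10 to 0.84 log2 units apart. In 6 of the 25 (24%, against 14.1% of all genes tested), 4 or more arrays held the same value. The residual SD of these 6 rests on few distinct values. Dnajc9, a histone chaperone that works with HSP70, had log2 signals of 6.51, 6.65 and 6.67 under the wild-type label and 6.75, 6.82, 6.70 and 6.96 under the knockout label. The labels were set apart by 6.67 and 6.70, and the difference of 0.20 (-0.03 to 0.42) had an unadjusted p of 0.0772 and an adjusted p of 0.971 in limma. Dnajc11, a mitochondrial membrane protein, had 5.94, 5.10 and 5.62 against 5.90, 5.86, 5.86 and 5.86, a difference of 0.32 (-0.12 to 0.75) that was 0.09 without wild-type 2, the low array.

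The residual SD between arrays of one label was above 0.5 for 4 chaperones, Hspa1a, Hspa1b, Hspb1 and Hspa12a. That share of 6.25% was close to the 5.37% of all genes tested. Hspa12a was dim, at 3.00 to 4.28 against array medians of 3.86 to 4.03. A range above 1 log2 unit over the arrays was found for these 4 and Hspb8 (7.81%, against 16% of all genes). The median range was 0.54 log2 units for the chaperones and 0.60 for all genes, so that most of the family varied about as much as other genes did.

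**Figure D4:**
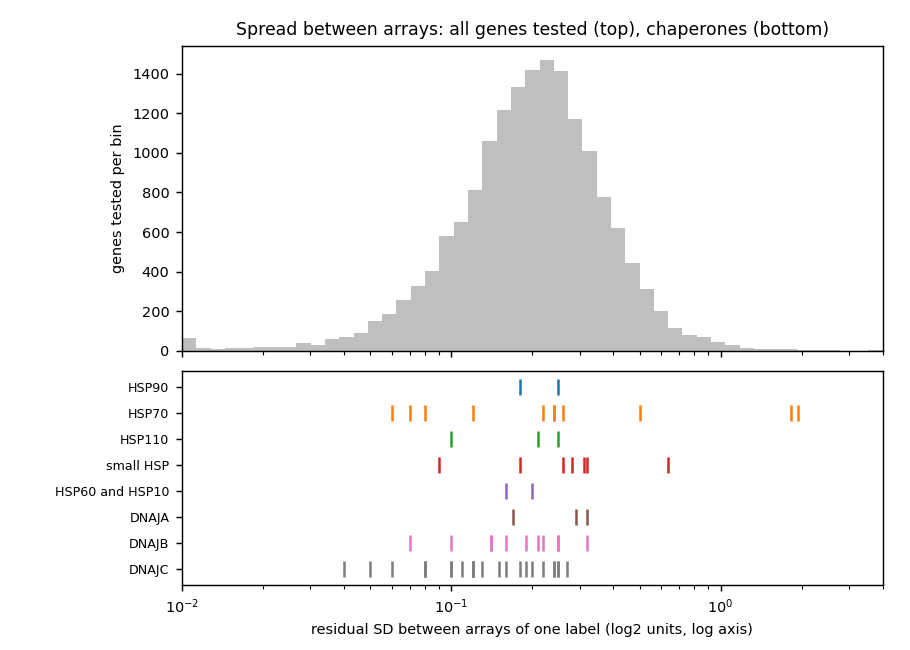
Residual SD between arrays of one label, in log2 units on a log axis, for the 16635 genes tested (bars, with values under 0.01 placed at the left edge) and for the 64 chaperone genes by class (ticks). The chaperone median of 0.18 lies close to that of all genes, 0.20, while Hspa1a at 1.83 and Hspa1b at 1.94 lie at the far right.

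The mean over all 66 chaperones was 6.35, 6.29 and 6.18 under the wild-type label and 6.25, 6.27, 6.36 and 6.14 under the knockout label. The labels overlapped, at 6.27 ± 0.09 (SD, n = 3) and 6.26 ± 0.09 (SD, n = 4). Knockout 3 was highest and knockout 4 lowest, a span of 0.22 log2 units. Without Hspa1a and Hspa1b, a choice made after seeing the data, the span was 0.15, with wild-type 1 highest and wild-type 3 lowest. The difference of the mean was -0.02 with all genes and 0.00 without these 2.

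The labels overlapped in every one of the 8 class means. The HSP70 mean was 7.02, 7.08 and 6.72 under the wild-type label and 7.09, 6.87, 7.21 and 6.33 under the knockout label. Its difference of -0.06 turned to 0.08 without Hspa1a and Hspa1b and to 0.12 without knockout 4. The HSP90 mean was 8.42 ± 0.02 (SD, n = 3) and 8.36 ± 0.07 (SD, n = 4), a difference of -0.06. Differences of the other class means were 0.06 for HSP110, -0.08 for small heat shock proteins, 0.09 for HSP60 and HSP10, 0.11 for DNAJA, -0.05 for DNAJB and 0.00 for DNAJC.

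Other genes of protein folding showed the same lack of calls by limma. Co-chaperones of HSP70 and HSP90 had 20 positive and 7 negative differences among the 27 measured, with a median of 0.08 and 0 passing. Ahsa1, which activates the HSP90 ATPase, had log2 signals of 7.60, 7.69 and 8.11 under the wild-type label and 8.10, 8.45, 8.11 and 8.48 under the knockout label, a difference of 0.48 (0.10 to 0.87, adjusted p = 0.971). Fkbp5, a co-chaperone of steroid receptors, had 6.54, 6.38 and 5.36 against 5.30, 5.56, 5.66 and 5.26, a difference of -0.65 (-1.32 to 0.02). Both genes had wild-type 3 nearer to the knockout-labelled arrays than to the other wild-type-labelled ones.

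The mitochondrial partners of HSP70 and HSP60 had 8 positive and 2 negative differences, with a median of 0.09, among them Trap1, the mitochondrial HSP90, at 0.34 (0.04 to 0.64) and the protease Clpp at 0.19 (-0.03 to 0.40). Folding factors of the endoplasmic reticulum had 12 positive and 3 negative differences, with a median of 0.11, including Cnpy2 at 0.32 and Creld2 at 0.26. Heat shock factors and their binding proteins had 4 positive and 1 negative difference, with Hsf5 at 0.34 and Hsbp1 at 0.08, and Hsf1 was not analysed here. Hsf5 was dim, at 2.73 to 3.38 against array medians of 3.86 to 4.03. The TRiC chaperonin, which folds actin and tubulin, had 3 positive and 5 negative differences with a median of -0.03, including Cct7 at 0.18 and Cct3 at 0.09, and prefoldin, which hands clients to it, had 4 and 1 with a median of 0.02, including Pfdn6 at 0.25 and Pfdn5 at -0.10. Of the small heat shock protein relatives, Cryab differed by 0.13 and Cryaa by -0.04. No gene of these lists passed, and all genes tested had a median difference of 0.02 with 54.4% positive. The list counts are without centring and compare with that share only. Median centring moved all genes tested to 68.7% positive, and the list counts are not given for it.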

How the data were processed

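Amplified RNA of each sample was read on 1 Affymetrix array of a single colour. The deposited values were made by the authors with RMA in Affymetrix Expression Console 1.1, per the submitters' processing notes, and their log2 scale was read from the values. The build behind the array annotation is not given in the sources used here. Of 41345 probe sets, 23521 had 1 gene symbol in the platform annotation, 1814 several and 16010 none listed. The brightest such probe set stood for each gene, and the dimmest 25% of genes (mean log2 below 2.98) were left out. RefSeq tables (GRCm38.p6) renamed 0 of the 66 chaperones. Labels were compared with limma 3.58.1 in R 4.3.3 (lmFit and eBayes, genotype as the only term, two-sided), called at an adjusted p under 0.05, after a check on simulated data. Class and overall means have no test. Values per array are printed for a fixed list, the 2 genes of smallest p per class, the 6 of largest residual SD, and genes whose labels do not overlap. Gene lists, classes and the genes themselves were chosen with earlier results of these data known. Lists of ciliated and erythroid markers averaged 3.93 to 4.33 and 3.79 to 4.18 over the arrays, with 0 genes passing. Same-numbered arrays of both labels did not deviate together (correlations of -0.18, -0.20 and -0.55), so the numbers were not taken as pairs.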

Additional observations from a re-analysis of the deposited data

Results flagged for a closer look

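In the 4 knockout-labelled arrays, 1 array stood far from the others in 3 of 38 values examined by Dixon's criterion. Some of these genes were named for a large spread or a small p on the same arrays. No chance rate can therefore be set beside this count. Hspb3 was at 4.01 on knockout 3 and at 3.09 to 3.23 on the others, values among or below the array medians of 3.86 to 4.03. The DNAJA class mean was 6.20 on knockout 1 and 6.42 to 6.47 on the others. Dnajc11 was at 5.90 on knockout 1 and at 5.86 on each of the others, a gap of no practical size.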

How the results depend on the processing

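No gene passed an adjusted p of 0.05 with limma under any of the 18 alternatives. The count of chaperones at an unadjusted p under 0.05, 1 in the main comparison, was 0 with the dimmest 50% of genes left out, with an intensity trend, with quantile normalization and with the replicate block, fixed or random. It was 0 to 3 with 1 array left out (3 of 64 without wild-type 3: Dnaja3, Dnajb4 and Hsp90aa1, where 7.9% of all genes passed too) and 2 of 64 without both wild-type 3 and knockout 3, where 10.7% of all genes did. With the replicate block as a fixed term, differences turned for Hspa1a (0.29), Hspa1b (0.40), Dnajb1 (0.03), Hsp90b1 (-0.01) and Hspe1 (-0.07), in a design where the arrays share only a number. Median centring turned Dnaja4 (0.04), Hspa8 (0.03), Dnajb1 and Dnajb11 (0.00), quantile normalization Dnaja4 (0.03), probe set means Dnaja3 (-0.10) and Hspa8 (0.02), and array weights Hspa12a (-0.14). Without both wild-type 3 and knockout 3, Hspa1a was -1.69, Hspa1b -1.64, Hspb1 -0.72, Hspa12a -0.16, Hspb3 -0.06, Hspa8 0.02 and Hspe1 0.00. With 1 array left out, 12 of 29 named genes turned: Hspa1a ranged from -1.36 to 0.29, Hspa1b from -1.35 to 0.40, Hspb1 from -0.57 to 0.12, Hspa12a from -0.07 to 0.57, Hsp90b1 from -0.05 to 0.22, Hspb3 from -0.04 to 0.27, Hspe1 from -0.07 to 0.12, Hspa8 from -0.07 to 0.02, Dnaja4 from -0.16 to 0.11, Dnajb1 from -0.16 to 0.03, Dnajb11 from -0.13 to 0.03 and Dnajc3 from -0.11 to 0.01. In 26 of 29 the difference turned or moved by over 1.5 times. With the median over genes in place of the mean, the difference was 0.35 for DNAJA, -0.38 for HSP70, -0.26 for small heat shock proteins and 0.02 for DNAJB and for all chaperones, and with probe set means DNAJA turned to -0.04. With 1 mismatch allowed, 13 in place of 4 chaperone promoters held the form of 3 units (24.1%, against 8.15% of all). The cause of these changes was not tested.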

Other observations

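The deposited values repeat between arrays. For 6 of the 64 tested chaperones (9.38%), and for 14.1% of all genes tested, 4 or more of the 7 arrays held the same log2 value to 2 decimals. All 6 were DNAJC genes, 24% of the 25 tested in that class. Dnajc16 was at 5.43 on 6 arrays and at 5.53 on wild-type 1, and Dnajc3 was at 9.35 on 5. Spread and standard errors of such genes rest on few distinct values.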
